A study of Mus musculus with 22 samples.

Results

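Livers of female and male mice without the genes of the arylamine N-acetyltransferases, Nat1 and Nat2 (KO), were compared on a high-fat, high-sucrose diet (HFHS), over genes on the 19 autosomes. The contrast took 6 of the 22 arrays of the series, 3 from KO females and 3 from KO males, chosen by their labels for genotype, diet, sex and batch, with the first array of a male that was hybridised in both batches. Of 13458 autosomal genes tested, 142 passed the threshold used here, an adjusted p below 0.05 in limma, a linear model with moderated variances. Such genes are referred to as called.

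All animals were C57BL/6 mice housed singly from the age of 12 weeks. The labels give 12 weeks of HFHS, with 45% of energy from fat and 35% from carbohydrate; the protocol can also be read as 12 weeks of chow before it. The series title relates loss of the enzymes to energy metabolism and fatty acid oxidation. WT littermates on HFHS (3 females and 3 males) gave the same contrast with both genes intact, and KO and WT males on chow (4 each) entered the fit for the spread and are cited for level only. The knockout is labelled only as Nat1/2 knockout, with no tissue restriction named, and the labels do not tell which animals shared a litter. The design text counts 4 males for each male group, whereas the titles of the HFHS male arrays name 3 animals and a second array of one of them.

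The mouse liver is among the most sexually dimorphic organs. Pituitary growth hormone reaches it in pulses in males and more evenly in females, and the hepatocyte reads this pattern through the receptor, JAK2 and STAT5B, together with sex-biased repressors such as BCL6 in males and CUX2 in females. The best known targets are cytochromes P450, sulfotransferases, urinary proteins and organic anion transporters, many of them in tandem gene clusters. NAT1 and NAT2 acetylate aromatic amines and hydrazines, and belong to the same layer of xenobiotic metabolism as these targets.

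The promoters of the most dimorphic genes are shown first, since several of these genes lie in families whose members moved together. Windows of 300 bases, from 250 before to 50 after the start of transcription, were taken from RefSeq (GRCm38.p6) and searched on both strands for the STAT5 palindrome TTCNNNGAA, the HNF6 and CUX core ATCGAT, the HNF4 site CAAAGTCCA and its variant CAAAGTTCA. None of these motifs contains another. The table of promoters held windows for 105 of the 142 genes. Shown are the 4 genes with the largest difference in each direction for which the table held a window, first those higher in females and then those higher in males, each 5′ to 3′ on the strand of the gene with a match in capitals.
Cyp3a16 (chr5:145469674-145469973, minus strand): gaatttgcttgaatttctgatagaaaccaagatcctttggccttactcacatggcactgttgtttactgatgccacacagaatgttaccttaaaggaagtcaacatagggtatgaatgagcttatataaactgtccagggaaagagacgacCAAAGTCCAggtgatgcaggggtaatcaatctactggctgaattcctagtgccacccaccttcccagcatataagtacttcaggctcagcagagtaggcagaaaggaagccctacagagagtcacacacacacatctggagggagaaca
Sult2a3 (chr7:14122999-14123298, minus strand): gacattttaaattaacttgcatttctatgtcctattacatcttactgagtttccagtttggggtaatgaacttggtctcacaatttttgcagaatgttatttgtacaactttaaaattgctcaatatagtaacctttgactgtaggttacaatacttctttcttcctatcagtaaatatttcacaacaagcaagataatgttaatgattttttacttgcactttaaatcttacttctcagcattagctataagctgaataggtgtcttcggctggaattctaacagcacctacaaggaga
Cyp2b13 (chr7:26061245-26061544, plus strand): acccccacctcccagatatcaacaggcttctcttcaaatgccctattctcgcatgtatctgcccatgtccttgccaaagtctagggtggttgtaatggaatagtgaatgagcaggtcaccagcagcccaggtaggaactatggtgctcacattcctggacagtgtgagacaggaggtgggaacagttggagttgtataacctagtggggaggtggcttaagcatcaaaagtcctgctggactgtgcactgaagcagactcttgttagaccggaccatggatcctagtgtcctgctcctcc
Hamp2 (chr7:30924132-30924431, minus strand): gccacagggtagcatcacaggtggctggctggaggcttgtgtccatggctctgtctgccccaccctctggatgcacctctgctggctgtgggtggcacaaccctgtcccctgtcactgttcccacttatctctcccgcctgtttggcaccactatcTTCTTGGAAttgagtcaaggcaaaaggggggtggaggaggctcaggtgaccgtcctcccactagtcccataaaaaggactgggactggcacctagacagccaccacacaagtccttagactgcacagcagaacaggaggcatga
Slco1a1 (chr6:141946913-141947212, minus strand): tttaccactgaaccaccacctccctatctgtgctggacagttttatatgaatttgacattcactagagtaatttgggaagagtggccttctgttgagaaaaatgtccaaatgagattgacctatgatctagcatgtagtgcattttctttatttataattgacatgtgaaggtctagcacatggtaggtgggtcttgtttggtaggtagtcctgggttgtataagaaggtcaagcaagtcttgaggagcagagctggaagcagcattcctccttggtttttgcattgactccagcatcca
Cyp2d9 (chr15:82452127-82452426, plus strand): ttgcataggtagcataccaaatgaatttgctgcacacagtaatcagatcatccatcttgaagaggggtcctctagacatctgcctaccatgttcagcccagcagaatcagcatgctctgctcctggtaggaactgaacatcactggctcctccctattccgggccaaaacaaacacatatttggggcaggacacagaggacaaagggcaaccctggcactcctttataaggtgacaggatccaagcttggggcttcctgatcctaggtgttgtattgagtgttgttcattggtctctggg
Serpina1e (chr12:103956848-103957147, minus strand): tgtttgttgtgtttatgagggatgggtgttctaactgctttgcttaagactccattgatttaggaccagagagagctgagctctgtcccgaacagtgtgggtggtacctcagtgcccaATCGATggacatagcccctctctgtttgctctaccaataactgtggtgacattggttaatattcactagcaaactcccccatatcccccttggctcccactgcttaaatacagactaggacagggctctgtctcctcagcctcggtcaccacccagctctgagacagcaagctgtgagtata
Mup21 (chr4:62150792-62151091, minus strand): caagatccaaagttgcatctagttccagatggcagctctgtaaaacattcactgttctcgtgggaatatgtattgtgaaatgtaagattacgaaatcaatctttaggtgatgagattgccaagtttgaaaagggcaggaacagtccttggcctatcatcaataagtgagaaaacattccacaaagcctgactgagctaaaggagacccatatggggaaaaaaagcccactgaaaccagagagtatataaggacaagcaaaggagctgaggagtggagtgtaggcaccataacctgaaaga

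The capitals mark the HNF4 site in Cyp3a16, beginning 99 bases before the start of transcription, the STAT5 palindrome in Hamp2, beginning 94 bases before it, and the ATCGAT core in Serpina1e, beginning 132 bases before it. The other 5 windows held none of these motifs. Of 31396 autosomal windows in the table, 8.35% held the STAT5 palindrome, 0.917% the ATCGAT core, 0.487% the HNF4 site and 0.395% its variant. Some genes have several windows. Among 81 windows of 61 female-higher genes the shares were 9.88%, 1.23%, 4.94% and 2.47%. Among 57 windows of 44 male-higher genes they were 7.02%, 3.51%, 1.75% and 0%. The 4 female-higher windows with the HNF4 site belonged to Cyp3a16 and to Cyp2c69, Cyp2c40 and Cyp2c68, the last 3 being neighbours on chromosome 19 with related sequence, so they are not separate observations. Hamp carried the STAT5 palindrome beginning 97 bases before its start, close to the place of the match in its neighbour Hamp2. A match describes letters and not binding.

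The labels for genotype and sex were checked first. Nat2 lay between 3.92 and 4.11 on the log2 scale in the KO females and between 3.50 and 4.07 in the KO males, against 6.84 to 7.31 in the WT animals on HFHS. Nat1, which was dim in all groups and outside the genes tested, lay at 2.22 ± 0.10 (SD, n = 3) in KO females and 2.59 ± 0.23 in KO males (exact permutation test, two-sided p = 0.10, the smallest that 3 against 3 can give). Xist and the Y-linked genes Kdm5d, Uty and Eif2s3y matched the labelled sex in all 6 KO animals. The 13 hepatocyte markers on the table averaged 11.97 to 12.04 per female and 11.69 to 12.03 per male, and 0 of them was called.

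One KO male stood apart. Hsd3b5, a male-biased steroid dehydrogenase, read 7.54 in male KO 3 and 2.58 and 2.35 in the other two KO males on HFHS. The 3 KO females read 2.33, 2.54 and 2.25 for this gene, and the 4 KO males on chow read from 7.10 to 9.04, a range that also holds the second array of male KO 3. Over autosomal genes, the deviation of male KO 3 from the other two correlated at r = 0.28 with the difference between WT males on chow and on HFHS, against -0.11 and -0.22 for the same quantity in males KO 1 and KO 2. This is a description across genes, and diet and batch cannot be told apart in it. The 2 arrays of male KO 3 correlated at 0.977. Male KO 3 did not lie near the chow males throughout: Hamp read 7.76 in it and 13.09 to 13.24 in the 4 KO males on chow, and Hamp2 read 5.53 against 7.33 to 9.79, in both cases farther from chow than the other HFHS males. The checks of Nat2 and of the sex-linked genes do not bear on diet, and the diet label of this animal could not be checked. The counts are given with and without it, as are named called genes that lost their call or moved by more than 1.5-fold without it.

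**Figure D1:**
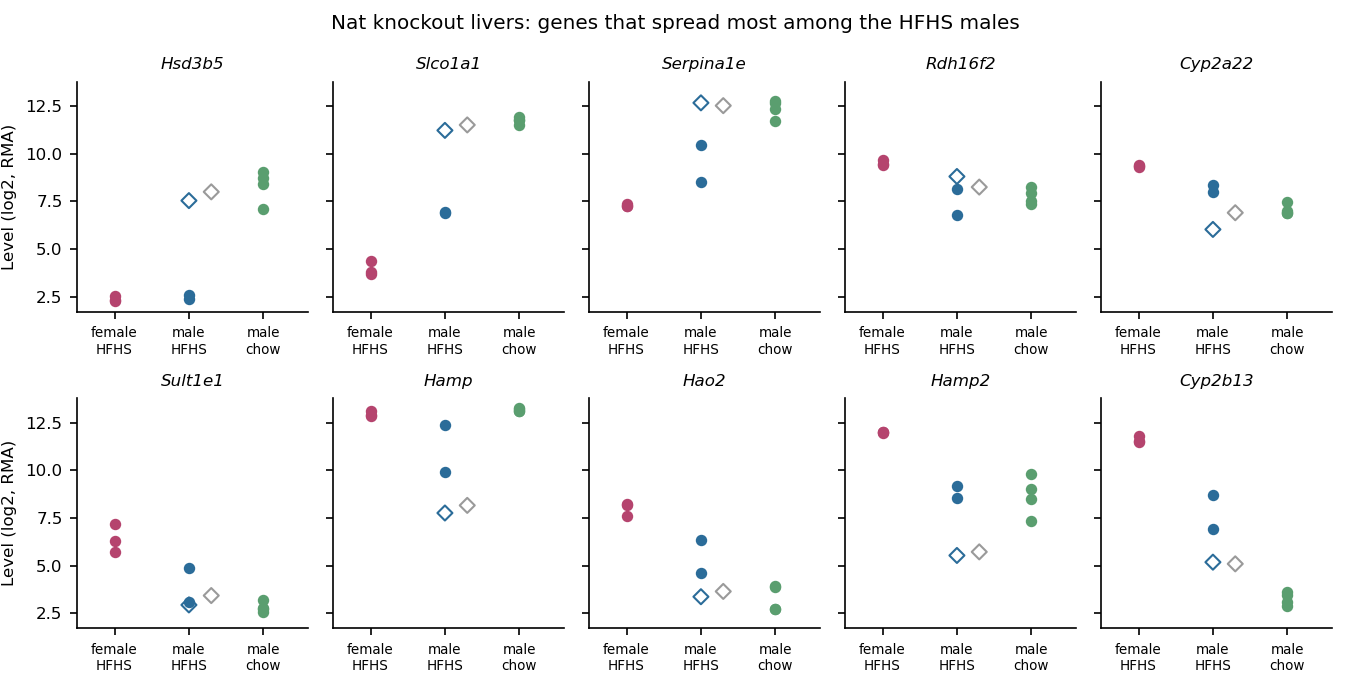
Levels (log2, RMA, vertical axis) in Nat knockout livers for Hsd3b5 and for the 9 called autosomal genes whose SD among the HFHS males exceeds 1; red points are females on HFHS, blue points males KO 1 and 2 on HFHS, the open blue diamond male KO 3, the grey diamond its second array, and green points males on chow. Male KO 3 lies at 11.23 for Slco1a1, near the chow males and far from 6.94 and 6.90 in the other HFHS males, whereas for Hamp, at 7.76, it is the HFHS male farthest from them.

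Of the 142 called autosomal genes, 81 were higher in KO females, or 0.602% of those tested, and 61 were higher in KO males, or 0.453%. The 3 animals of one sex lay above all 3 of the other in every one of them. The genes were called on these same values, so the separation is no further support. The median female minus male difference over all autosomal genes was 0.01 on the log2 scale, and 52.3% of genes had a positive one. Of the 81 female-higher genes, 20 reached a fold of 4 and 7 a fold of 16, against 13 and 1 of the 61 male-higher genes. The counts fell to 42 and 45 without female KO 1, 41 and 34 without female KO 2, and 47 and 41 without female KO 3. With only the 6 KO arrays in the fit they were 30 and 18. Without male KO 3 the counts were 79 and 74, of which 53 and 41 were genes called with it. All 142 differences kept their sign, which the full separation of the sexes had fixed in advance. In 17 female-higher and 17 male-higher genes the lower sex had a mean under the median of the table (4.57). These genes, Sult2a1, Sult2a2, Sult2a3 and Cyp3a16 among them, entered the test through the other sex or through other groups. With no filter on low values the counts were 67 and 54, of which 62 and 51 were genes called with the filter.

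**Figure D2:**
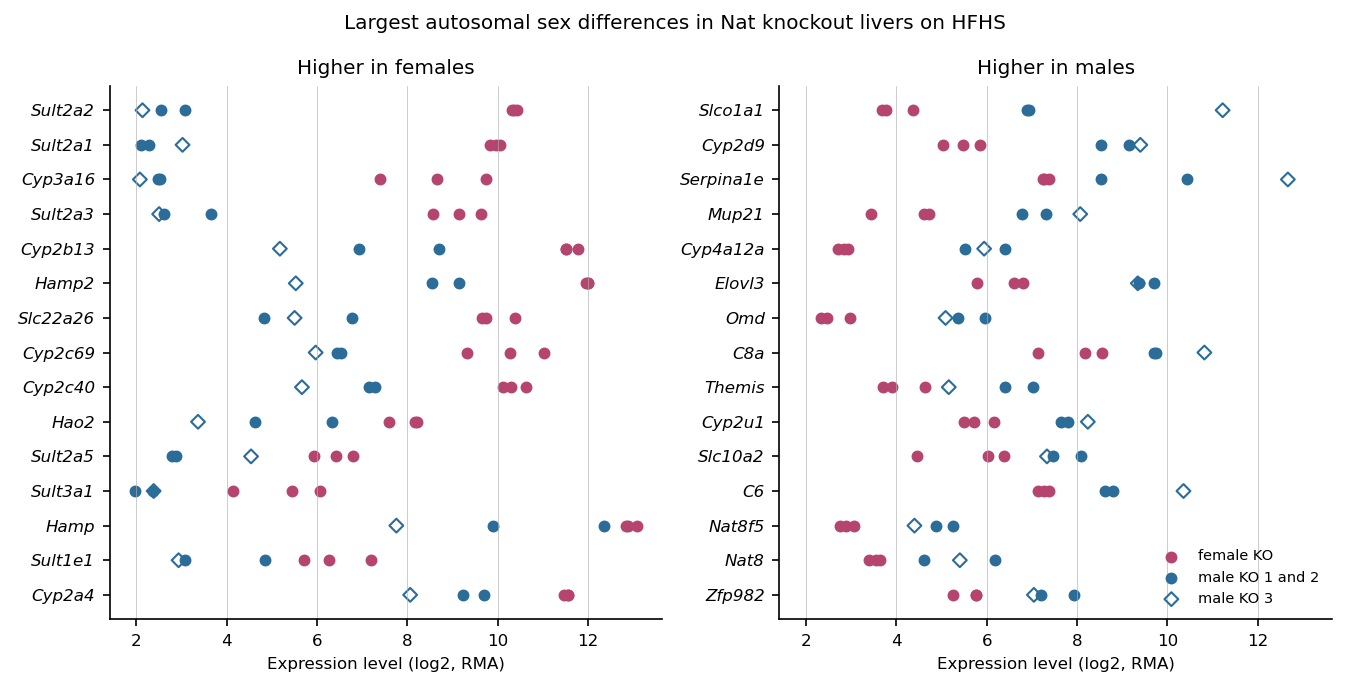
Levels (log2, RMA, horizontal axis) in each Nat knockout animal on HFHS for the 15 named genes with the largest difference in each direction; red points are the 3 females, filled blue points males KO 1 and 2 and open diamonds male KO 3. Only called genes in which the sexes do not overlap were eligible for these 30. Sult2a2 separates most, at 10.32 to 10.42 in females against 2.13 to 3.06 in males.

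Sulfotransferases, which add sulfate to steroids, bile acids and xenobiotics, held the largest differences. Of 16 tested, 7 were called, all higher in females, with a list median of 1.45. Sult2a2, a hydroxysteroid sulfotransferase, read 10.42, 10.35 and 10.32 in the KO females and 3.06, 2.55 and 2.13 in the KO males. The male values lie around the 10th percentile of the whole table (2.70). The difference was 7.78 ± 0.44 (SE; adjusted p = 1.1e-09), a fold of 220 on this scale.

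Sult2a1 read 9.84, 9.96 and 10.06 in females and 2.09, 2.28 and 3.02 in males, a difference of 7.49 ± 0.55 (adjusted p = 6.9e-08). Sult2a3 read 9.64, 8.56 and 9.14 against 2.62, 3.64 and 2.50 (6.19 ± 0.48, adjusted p = 1.1e-07). Sult2a5 (2.98) and Sult2a4 (2.15) followed, and on chromosome 7 these 5 Sult2a genes are adjacent, with no other gene of the table between them. They are near copies of one another, so a probe for one may also read another, and their separate values are uncertain. Sult3a1, an amine sulfotransferase on chromosome 10, read 5.44, 4.14 and 6.06 against 2.37, 1.97 and 2.38 (2.98 ± 0.47, adjusted p = 0.0014). All 7 were called without male KO 3 as well.

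Cytochromes P450, the haem monooxygenases of drug and steroid oxidation, were called in both directions, 7 higher in females and 3 higher in males of 55 tested, with a list median of 0.13. Cyp3a16, a female-biased steroid and drug hydroxylase, read 7.39, 9.75 and 8.66 in females and 2.48, 2.52 and 2.08 in males. This is a difference of 6.24 ± 0.46 (adjusted p = 6.9e-08), although the females themselves spread over more than 2 log2 units. Cyp2b13 read 11.78, 11.51 and 11.52 against 6.93, 8.71 and 5.18, with male KO 3 the lowest. Its difference was 4.66 ± 0.57 (adjusted p = 8.7e-05) and 3.78 without that male.

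The chromosome 19 trio Cyp2c69 (3.89 ± 0.33), Cyp2c40 (3.65 ± 0.47) and Cyp2c68 (1.04 ± 0.23) was higher in females, though Cyp2c68 lost its call without male KO 3 (adjusted p = 0.12). Cyp2a4, a testosterone hydroxylase, read 11.55, 11.55 and 11.47 against 9.70, 9.24 and 8.06 (2.53 ± 0.34, adjusted p = 0.00029). Its relative Cyp2a22 was also called (1.91 ± 0.39), with male KO 3 at 6.03 against 8.02 and 8.34 in the other males. Without that male the difference was 1.19, and the call was lost without any 1 of the 3 females (adjusted p of 0.054, 0.064 and 0.061). Members of these subfamilies are similar in sequence and may share signal. Cyp2b9, at 12.11, 12.04 and 12.07 in females and 11.77, 11.82 and 10.24 in males, was not called (adjusted p = 0.81).

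Male-higher P450s were led by Cyp2d9, a steroid hydroxylase of male liver, with 8.53, 9.16 and 9.40 in males and 5.85, 5.47 and 5.03 in females (-3.58 ± 0.32, adjusted p = 1e-06). Cyp4a12a, a fatty acid hydroxylase of male liver and kidney, read 6.40, 5.52 and 5.94 in males and 2.71, 2.83 and 2.93 in females (-3.13 ± 0.39, adjusted p = 9.2e-05). Cyp2u1 was the third (-2.11 ± 0.23). The 2 sexes were well apart in each of these, and all 3 genes kept their calls when any 1 KO animal was left out.

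The other conjugating and oxidising families are read against the 0.602% and 0.453% of all autosomal genes called in each direction. Of 4 flavin monooxygenases, Fmo2 (1.51 ± 0.28) and its chromosome 1 neighbour Fmo4 (0.70 ± 0.17) were higher in females. Fmo4 lost its call in every refit that left out 1 KO animal. Of 19 glutathione transferases only Gstp1 was called; it read 11.53, 10.73 and 11.67 in males and 9.41, 9.63 and 9.53 in females (-1.79 ± 0.23, adjusted p = 0.0002). The pseudogene Gstp-ps, whose probes may share signal with it, differed the same way (-1.20 ± 0.20). Of 13 UDP-glucuronosyltransferases 0 were called, with a smallest adjusted p of 0.433, for Ugt2b35.

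The list of N-acetyltransferases, which holds the targeted family and other N-acetyltransferases, had 2 of 10 tested genes called, both higher in males. They were Nat8f5, at 4.89, 5.24 and 4.40 in males and 2.76, 2.89 and 3.06 in females (-1.94 ± 0.28, adjusted p = 0.00053), and its chromosome 6 neighbour Nat8, a cysteine conjugate acetyltransferase, at 4.61, 6.18 and 5.40 against 3.63, 3.39 and 3.55 (-1.87 ± 0.32, adjusted p = 0.0035).

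Transporters were split, with 3 called higher in females and 3 higher in males of 28 tested. Slc22a26, an organic anion transporter, read 9.75, 10.39 and 9.65 in females and 4.82, 6.77 and 5.50 in males (4.23 ± 0.38, adjusted p = 9.3e-07). Slc22a29, which lies near it on chromosome 19, differed by 1.91 ± 0.27. Abcb1a, the drug efflux pump, was called at adjusted p = 0.049 and lost the call without male KO 3 (0.15).

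Slco1a1, a male-biased organic anion transporter, had the largest male-higher difference and also the widest spread. It read 11.23 in male KO 3 and 6.94 and 6.90 in the other males, against 3.67, 4.36 and 3.78 in females. The difference was -4.42 ± 0.93 (adjusted p = 0.02), and without male KO 3 it was -2.98 with an adjusted p of 0.064. The SE rests on a spread shared by all groups of the fit, whereas the SD was 2.49 among KO males and 0.37 among KO females. The call was kept in 2 of the 6 refits that left out 1 KO animal. Every male lay above every female, as in all called genes. Abcg2, an efflux pump for urate and drugs, read 8.78, 8.68 and 8.05 in males and 7.32, 7.06 and 7.38 in females (-1.25 ± 0.17, adjusted p = 0.00033). Slc10a2, the ileal type of bile acid transporter, was also higher in males (-2.01 ± 0.34).

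In steroid and bile acid metabolism 3 of 32 tested genes were called. Cyp17a1, the enzyme of androgen precursor synthesis, read 11.13, 10.33 and 11.35 in females and 8.25, 9.22 and 8.63 in males (2.24 ± 0.40, adjusted p = 0.0057). Cyp7b1, the oxysterol hydroxylase, read 9.06, 9.64 and 10.54 in males and 8.06, 7.98 and 8.18 in females (-1.67 ± 0.31, adjusted p = 0.0071). Scp2, the sterol carrier protein, read 12.27, 12.11 and 12.10 in males against 11.43, 11.42 and 11.29 in females, each sex closely grouped (-0.78 ± 0.11, adjusted p = 0.00029). Cyp7a1, the rate-limiting enzyme of bile acid synthesis, was not called (1.13 ± 0.55, adjusted p = 0.46), and 1 male read 8.37 against 10.58 and 10.62 in the others.

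Of the secreted protein families, urinary proteins and clade A serpins each had 1 called gene, higher in males. Mup21, a major urinary protein, read 6.79, 7.32 and 8.07 in males and 4.72, 3.43 and 4.62 in females (-3.14 ± 0.36, adjusted p = 4.1e-05). It was the only one called of 4 urinary proteins tested, all of which had negative differences; Mup3 differed by -0.32 (adjusted p = 0.16). The urinary proteins are near-identical and their probes may not separate them. Serpina1e, an alpha-1 antitrypsin paralog, read 8.53, 10.44 and 12.67 in males and 7.25, 7.38 and 7.28 in females (-3.25 ± 0.67, adjusted p = 0.018). Without male KO 3 its difference was -2.19 and its adjusted p 0.055, and it kept its call in 1 of the 6 refits. Serpina1d, another paralog, did not separate the sexes (0.10, adjusted p = 0.871).

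Of 26 complement genes, 2 parts of the membrane attack complex were called, both higher in males. C6 read 8.79, 8.61 and 10.36 in males and 7.27, 7.14 and 7.39 in females (-1.99 ± 0.33, adjusted p = 0.0026). C8a read 9.71, 9.76 and 10.82 against 8.54, 7.14 and 8.18 (-2.15 ± 0.37, adjusted p = 0.0035). Male KO 3 was the highest in both, and both calls were kept without it. C9, which completes the complex, differed by -0.76 and was not called (adjusted p = 0.125).

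Fatty acid oxidation is the process named in the series title. Of 22 tested genes of the mitochondrial pathway 0 were called, 21 had a positive difference and the list median was 0.19, with Bdh1 the nearest to the threshold (adjusted p = 0.095). Over all autosomal genes tested 0.602% and 0.453% were called, so a count of 0 in 22 is near the background. In WT the median was 0.11, also with 0 called. In the peroxisomal and microsomal list 2 of 19 were called, both higher in females. Hao2, a peroxisomal hydroxyacid oxidase, read 8.22, 8.17 and 7.59 in females and 4.62, 6.33 and 3.36 in males (3.22 ± 0.51, adjusted p = 0.0017), or 2.52 without male KO 3. Hacl1, which shortens branched and hydroxylated acids, differed by 1.07 ± 0.19. The neighbouring thioesterases Acot3 (2.05 ± 0.21) and Acot4 (1.29 ± 0.24), which release fatty acids from coenzyme A, were also higher in females.

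Elovl3, which elongates saturated and monounsaturated fatty acids, was the only called gene of 33 in lipogenesis and elongation. It read 9.37, 9.70 and 9.35 in males and 6.61, 5.78 and 6.81 in females (-3.07 ± 0.20, adjusted p = 1.6e-08). Tm6sf2 (0.84) and Apom (0.61), both tied to lipoproteins, were higher in females. Fitm1 (-0.98), which acts in lipid droplet formation, and Fabp4 (-1.47), a fatty acid carrier of adipocytes and macrophages, were higher in males. In the 6 refits that left out 1 KO animal, Tm6sf2 kept its call in 3, Apom in 1, and Fitm1 and Fabp4 in 2 each; without male KO 3, Tm6sf2 had an adjusted p of 0.059. Fabp4 read 7.60, 7.98 and 7.39 in males and 6.06, 5.81 and 6.68 in females. The 7 adipocyte markers on the table, Fabp4 among them, averaged 4.75 to 5.31 per male and 4.38 to 4.75 per female, with 1 of 5 tested called; their part in this difference was not tested.

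**Figure D3:**
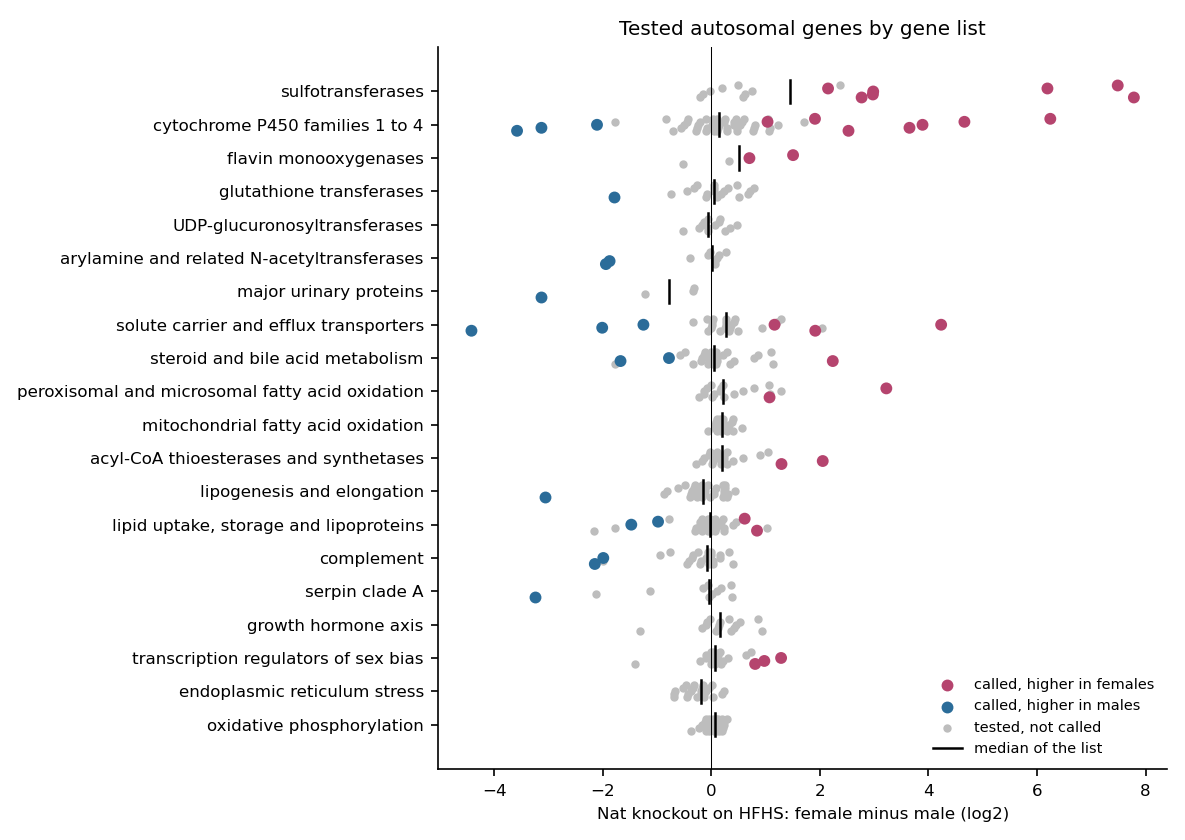
Female minus male difference (log2, horizontal axis) in Nat knockout livers on HFHS for the tested autosomal genes of 20 gene lists; red and blue points are called genes, grey points those not called, and black bars list medians. Sulfotransferases have a median of 1.45 with 7 of 16 called in females, while mitochondrial fatty acid oxidation has 0 of 22 called.

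The growth hormone axis carries the sex-specific signal to the liver. Of 16 tested genes of the axis 0 were called, which is near the share over all genes: Ghr differed by -0.08, Igf1 by 0.15, Socs2 by 0.17 and Stat5b by 0.42 (adjusted p = 0.18). Igfals had the smallest p (0.87 ± 0.25, adjusted p = 0.13). Egfr, whose level is male-biased in liver, read 11.02 in male KO 3 against 8.62 and 8.91 in the other males and 7.95 to 8.62 in females.

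Of 23 transcription regulators tested, 3 were called, all higher in females. Esr1, the oestrogen receptor, read 7.70, 7.98 and 7.65 in females and 6.20, 6.52 and 6.75 in males (1.29 ± 0.16, adjusted p = 8.2e-05). Cux2, a female-biased repressor, read 5.80, 5.90 and 5.82 against 5.18, 4.72 and 5.20 (0.81 ± 0.16, adjusted p = 0.015). Its call was kept in 2 of 6 refits, and lost without any 1 of the females (adjusted p of 0.052, 0.083 and 0.054) or without male KO 2 (0.086). Trim24 read 8.93, 8.73 and 8.95 against 7.58, 8.33 and 7.76 (0.98 ± 0.20, adjusted p = 0.015), with an adjusted p of 0.055 without male KO 3, and kept its call in 2 of 6 refits. Bcl6, the male-biased repressor, read 7.55, 6.57 and 8.10 in males and 5.82, 5.58 and 6.60 in females, so the sexes met, and was not called (-1.40 ± 0.66, adjusted p = 0.43). Hnf4a did not separate them (0.00, adjusted p = 0.999).

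Other called genes with a large difference included St3gal6, a sialyltransferase (2.52 ± 0.28), and Serpinb1a, an inhibitor of neutrophil proteases (2.52 ± 0.37), both higher in females. Omd, a small leucine-rich matrix proteoglycan, was higher in males (-2.88 ± 0.34), reading 5.37, 5.96 and 5.09 against 2.98, 2.33 and 2.45. Zfp982 (-1.81 ± 0.37) and the T-cell gene Themis (-2.12 ± 0.46) were higher in males but kept their calls in 3 and 2 of 6 refits. For Themis, the 18 lymphocyte markers on the table averaged 4.66 to 4.78 per male and 4.70 to 5.24 per female, 0 of 10 tested were called and Cd3e differed by 0.08. Their part in the Themis difference was not tested. A lower RNA level per cell and fewer cells of a type cannot be told apart in tissue of this kind.

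Wild-type littermates on the same diet gave 104 autosomal genes higher in females (0.773%) and 80 higher in males (0.594%). Of the KO calls, 77 were called in WT in the same direction, 39 higher in females and 38 in males, which is 54.2% of the KO calls and 41.8% of the WT calls. None was called in opposite directions. Among the other 65 KO calls, 59 had a WT difference of the same sign. The exceptions were Hamp, Sult1e1 and Gnaq, higher in KO females, and Megf11, Dcst2 and Trav12-2, higher in KO males, and their WT differences lay between -0.16 and 0.27. Without male KO 3, Gnaq, Megf11, Dcst2 and Trav12-2 lost their KO calls, with adjusted p of 0.11, 0.061, 0.095 and 0.099. Over all autosomal genes the sex differences of the 2 genotypes, measured in separate animals, correlated at r = 0.59. Single animals moved the WT counts: without female WT 2 the WT calls were 31 and 32, and without male WT 1 they were 47 and 43.

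**Figure D4:**
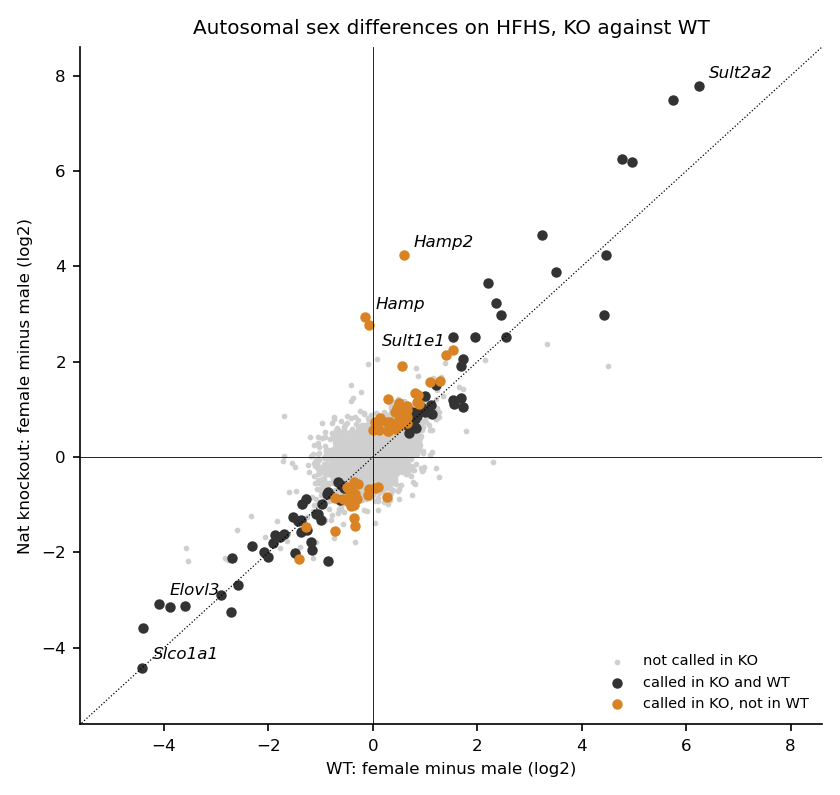
Female minus male difference (log2) on HFHS for 13458 autosomal genes, in WT animals (horizontal) and in Nat knockout animals (vertical); black points are genes called in both, orange points genes called only in the knockout contrast, grey points the rest, and the dotted line marks equal differences. Most called genes lie near the line, while Hamp2, Hamp and Sult1e1 lie above it.

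The difference itself was tested by the sex by genotype interaction, in which limma called 0 of the 13458 autosomal genes (0%). At an unadjusted p below 0.05 there were 691, near the share that this threshold passes without any interaction. The KO sex difference had 1493. The 2 smallest adjusted p values were 0.205 for C730027H18Rik, at a KO minus WT difference of -1.33 ± 0.23, and 0.354 for Sult1e1. Gm11189, Krt73, Olfr978, 2810408I11Rik, Rexo1 and Trav12-2 came next, each at an adjusted p of 0.933. Calls present in KO and absent in WT are therefore not shown to differ between genotypes. The Sult2a genes gave larger differences in KO than in WT, 7.78 against 6.24 for Sult2a2 and 7.49 against 5.74 for Sult2a1, and their interaction had an adjusted p of 0.933.

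Sult1e1, the oestrogen sulfotransferase, read 6.27, 7.19 and 5.70 in KO females and 3.08, 4.85 and 2.93 in KO males (2.77 ± 0.39, adjusted p = 0.00039). In WT it read 2.80, 2.84 and 3.42 in females and 2.83, 3.08 and 3.37 in males, a difference of -0.08. All 3 KO females lay above all other HFHS animals, and of the KO males only male KO 2 lay above the WT range. The interaction was 2.84 ± 0.55. Its adjusted p fell to 0.0014 without male KO 2, the only refit over KO animals in which this gene's interaction was called.

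Both hepcidin genes, Hamp and Hamp2, were called in KO. The peptide of Hamp lowers iron release from cells through ferroportin. Iron genes were grouped after their values had been seen, so the group supports nothing by itself. Hamp read 12.85, 13.09 and 12.89 in KO females and 12.36, 9.90 and 7.76 in KO males (2.94 ± 0.63, adjusted p = 0.023). The fit shares a single spread over 6 groups, so this SE understates that of the KO males. Their SD was 2.30, against 0.13 in KO females. WT females read 12.95, 12.34 and 12.93 and WT males 12.86, 12.72 and 13.13. Male KO 1 was thus inside the WT range and the others were below it. The difference was 1.81 without male KO 3 and 4.11 without male KO 1, and the call was kept in 2 of 6 refits.

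Hamp2, the neighbouring paralog on chromosome 7, read 12.00, 11.95 and 12.00 in KO females and 8.56, 9.15 and 5.53 in KO males (4.24 ± 0.77, adjusted p = 0.0061, and 3.13 without male KO 3 at adjusted p = 0.023). This SE also rests on the spread of all 6 groups, whereas the SD was 1.94 among KO males and 0.03 among KO females. WT levels were 11.48 ± 0.58 (SD, n = 3) in females and 10.89 ± 0.34 in males. The interaction was 3.65 ± 1.09 for Hamp2 and 3.09 ± 0.89 for Hamp, each at adjusted p = 0.933; that of Hamp was called without male KO 1. Hamp and Hamp2 are close copies, and their probes may share signal.

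Tfrc, the transferrin receptor, differed the other way. It read 6.57, 7.24 and 6.61 in KO males and 5.68, 5.12 and 5.79 in KO females (-1.27 ± 0.21, adjusted p = 0.0026), and the call was kept in all 6 refits. In WT males it read 5.81, 6.06 and 5.63, and in WT females 5.49, 5.47 and 5.45. Slc25a37, the mitochondrial iron importer of erythroid cells, read 8.09, 8.19 and 8.62 in KO males and 7.61, 7.70 and 7.58 in KO females (-0.67 ± 0.14, adjusted p = 0.018; 0.075 without male KO 3). The KO males lay above all other HFHS animals for both genes. Of 27 iron genes tested, 23 were not called, among them Bmp6 (0.74, adjusted p = 0.20) and Smad7 (0.88, adjusted p = 0.19).

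The 5 erythroid markers on the table averaged 4.90 to 6.53 per KO male and 4.43 to 4.75 per KO female, so the sexes did not overlap. This average took every marker on the table, without the filters for chromosome and level that the tested genes passed. The globin gene Hbb-bt read 5.95, 8.18 and 8.32 in males and 5.11, 4.79 and 6.18 in females (-2.12 ± 0.63, adjusted p = 0.147). 0 of the 3 erythroid markers tested was called, and their part in the Tfrc and Slc25a37 differences was not tested.

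**Figure D5:**
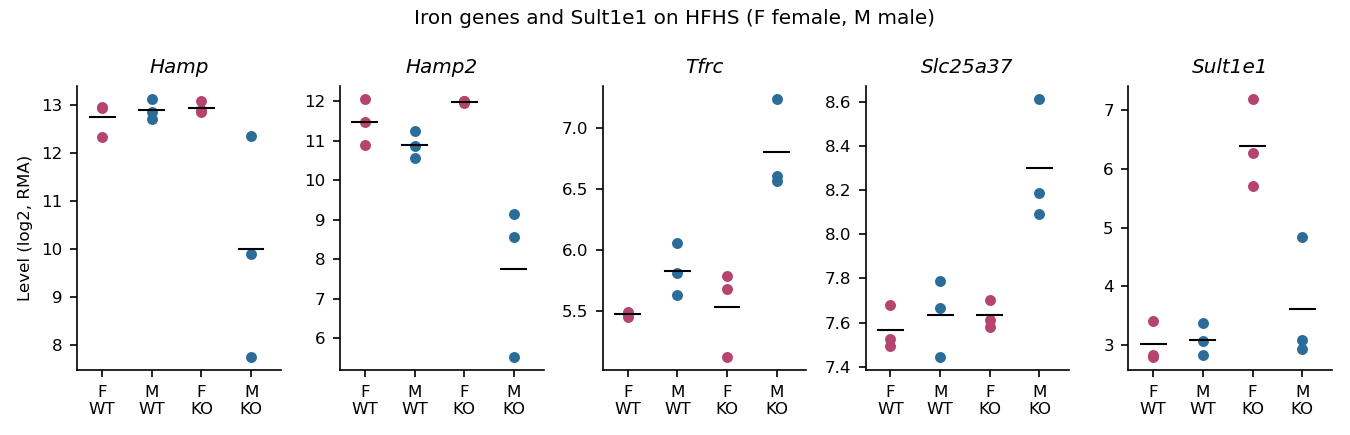
Levels (log2, RMA, vertical axis, scaled per gene) of Hamp, Hamp2, Tfrc, Slc25a37 and Sult1e1 in each animal on HFHS, with females in red, males in blue and bars at group means of 3 animals. KO males have the lowest Hamp2 (5.53 to 9.15) and the highest Tfrc (6.57 to 7.24), and KO females the highest Sult1e1 (5.70 to 7.19).

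The spread of the called genes was wider in males. The median SD over the 81 female-higher genes was 0.28 among KO males and 0.17 among KO females, and over the 61 male-higher genes 0.31 and 0.18. Over all autosomal genes it was 0.20 and 0.16. Male KO 3 was the lowest of the males in 44 of the 81 female-higher genes and the highest in 28 of the 61 male-higher genes. It was at the opposite end of the males in 19 of the 81 and in 21 of the 61. In all, 59 of the 142 genes kept their call when any 1 KO animal was left out, 29 of them higher in females and 30 in males, whereas 6 kept it in none of the 6 refits.

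Called genes lay on all 19 autosomes, from 0.178% of tested genes on chromosome 11 to 2.04% on chromosome 19. Several sat beside another called gene with no other gene of the table between them, as in the Sult2a, Cyp2c, hepcidin, Acot and Nat8 pairs and rows described above. Members of these named rows are related in sequence and cannot be counted as separate observations. The adjacent pairs Carmil1 with Cmah and Arsa with C230037L18Rik, all higher in males, are not members of one family by name. Carmil1 and Cmah lost their calls without male KO 3, with adjusted p of 0.061 and 0.084.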

How the data were processed

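Total RNA from liver, labelled with biotin, was hybridised to 22 single-colour arrays of 20 mice. The deposited values are log2 expression values, made by the authors with RMA in affy 1.48.0 under R 3.4.3, per the submitters' processing notes. They were used as deposited, and array medians lay between 4.51 and 4.58. No genome build is named in the sources used here. Probe sets were named through the platform annotation (24705 of 25428 with 1 symbol, 0 with several, 723 with none) and matched by gene number to RefSeq (GRCm38.p6) for the chromosome, of which 24673 matched. Of several probe sets for a symbol (1 symbol) the brightest was kept.

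A gene was tested if above the table median in at least 3 arrays, which left 13871 genes, 13458 of them autosomal. limma 3.58.1 (lmFit and eBayes, R 4.3.3) was fitted to 20 arrays, 1 per animal, with 6 group means. Tests are two-sided. All tested genes, those of X and Y included, entered the Benjamini-Hochberg adjustment, and a gene was called at an adjusted p below 0.05. Errors of differences are SE of the fit, whose spread is shared by all 6 groups, and of levels SD. The SE understates the spread of a group that varies more than the others. Nothing in the labels says that animals were independent of litter, so the p values measure the spread between these animals. The number of arrays limits precision. Figures used matplotlib 3.10.9. The fit was tested on simulated data.

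Named genes were the 15 largest in each direction among called genes without overlap between the sexes, predicted genes left out. They also included up to 6 of each list by p, the called regulators, the 8 smallest interaction p values, and called genes of opposite sign in WT. Other genes named were chosen after their values were seen. The members and lists were chosen with earlier results of these data known, and list counts carry no test. Of the 4 males per group in the design text, 3 and a repeat are named in the titles. Alternatives covered the filter, normalisation, variance model, fold threshold, samples, batch term, replicate block and each animal left out.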

Additional observations from a re-analysis of the deposited data

How the results depend on the processing

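The counts below are for KO higher in females (81) and in males (61), WT higher in females (104) and in males (80), and genes called in both genotypes in the same direction (77). With a fold threshold of 1.5 they were 19, 13, 15, 15 and 18. At an adjusted p below 0.01 they were 36, 30, 27, 32 and 37. With only the groups compared in the fit they were 30, 18, 47, 49 and 30, the spread then coming from fewer animals. With the 12 Batch1 arrays alone they were 56, 41, 41, 42 and 51. With the replicate block, fitted to those 12 arrays and not to all 20, they were 48, 36, 41, 38 and 49. Same-numbered KO animals deviated from their group means with correlations of -0.08, -0.10 and -0.13. These values gave no sign that the numbers pair animals but cannot exclude it. The unpaired values are the ones reported. Leaving out male KO 3 and female WT 2 together gave 46 and 51 in WT. With each HFHS animal left out in turn the KO counts were 41 to 85 and 34 to 74, the WT counts were 31 to 143 and 32 to 119, the shared count 43 to 90 and the interaction 0 to 2. The interaction calls were Hamp and Gm16174 without male KO 1, Sult1e1 and 2810039B14Rik without male KO 2, and C730027H18Rik without male WT 1. For the 30 genes with the largest differences and the 8 of the interaction, no alternative reversed a sign. In the 30, chosen without overlap between the sexes, leaving out an animal could not have reversed it. Of 978 values, 58 lost a call and 2 gained one. The cause of these changes was not tested. The number of arrays limits precision, and values near the floor, such as those of the Sult2a genes in males, understate a difference.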
